A study of Mus musculus with 4 samples.

Results

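Aldosterone alone was set against its absence and its blockade in mDCT cells, by asking which genes had both aldosterone-alone libraries on the same side of both other libraries. mDCT is an immortalized line from the mouse distal convoluted tubule, and every culture had been transfected with pCSII-3xFLAG-hMR, a plasmid that expresses FLAG-tagged human mineralocorticoid receptor (MR). Transfected cultures were pretreated with spironolactone or ethanol from 48 h on, for 2 h, and then kept with aldosterone or ethanol for another 3 h. The aldosterone-alone side held the library with 1 nM aldosterone and the library with 100 nM aldosterone. The other side held the ethanol library and the library with 100 nM aldosterone after 5 µM spironolactone, called the spironolactone library from here on. These 4 libraries, 2 a side, are the whole series, and no library with spironolactone by itself was analysed here. Expression was read on an Affymetrix 3′ array, from biotin-labelled cRNA made from 250 ng of total RNA, as MAS5 signal on a linear scale.

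For each gene the gap was taken as the log2 distance between the lower library of the higher side and the higher library of the lower side. A gene whose sides overlapped had no gap. The mean difference was the mean log2 signal of the aldosterone-alone side minus that of the other side. Each gene was represented by its brightest probe set, a probe set being the group of oligonucleotides that reads out 1 transcript. Of 18194 genes, 11058 entered, those with a mean log2 signal at or above the median over all probe sets, which is a signal of 55.9. Each treatment had 1 array and the 2 libraries of a side had received different treatments, so no replicate error, p-value or interval can be given, and every difference below is between these libraries.

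Aldosterone is the adrenal steroid that sets sodium reabsorption and potassium secretion in the distal nephron. It binds MR, a nuclear receptor held by HSP90-based chaperones, and the bound receptor moves to the nucleus and acts on DNA elements shared with the glucocorticoid receptor, whose core is the hexamer AGAACA. Spironolactone competes for the hormone pocket of MR. Sgk1, Tsc22d3, Per1, Klf9 and Fkbp5 are textbook corticosteroid targets.

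The libraries had a common scale, with a trimmed mean signal of 500.003 in each, and median signals between 58.9 and 61.7. The mouse Nr3c2 probe set, which was not designed for the human receptor, lay under the filter, with signals of 2.35 (ethanol), 21.8 (1 nM), 4.44 (100 nM) and 15.1 (spironolactone). Of 15 distal convoluted tubule markers named on the array, 6 passed the filter. Slc12a3, the thiazide-sensitive cotransporter that defines that segment, gave 3.93, 17.2, 12.1 and 4.35 in the same order of libraries and did not pass. The summed signal of the 15 markers was 852 (ethanol), 913 (1 nM), 913 (100 nM) and 778 (spironolactone).

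The sequences below are the 250 bases that end at an annotated transcription start, from RefSeq on GRCm38.p6, printed 5′ to 3′ on the gene's strand. They were chosen as the promoter of Sgk1 that holds a complete corticosteroid element, 3 promoters of genes that set the sides apart and hold a hexamer, and 2 of such genes that hold none. Capitals mark AGAACA or its reverse complement TGTTCT.
Sgk1, chr10:21993640-21993889, plus strand: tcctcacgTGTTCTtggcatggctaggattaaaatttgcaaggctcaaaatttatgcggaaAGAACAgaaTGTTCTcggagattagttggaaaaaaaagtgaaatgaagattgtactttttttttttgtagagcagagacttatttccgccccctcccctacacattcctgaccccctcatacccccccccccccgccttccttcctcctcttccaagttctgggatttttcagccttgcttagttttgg
Mkks, chr2:136891407-136891656, minus strand: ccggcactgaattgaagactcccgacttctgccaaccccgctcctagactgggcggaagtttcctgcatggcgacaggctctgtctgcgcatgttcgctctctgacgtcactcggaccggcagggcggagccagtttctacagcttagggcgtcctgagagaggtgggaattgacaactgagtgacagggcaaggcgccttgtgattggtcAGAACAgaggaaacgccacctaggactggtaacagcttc
Csrnp1, chr9:119984444-119984693, minus strand: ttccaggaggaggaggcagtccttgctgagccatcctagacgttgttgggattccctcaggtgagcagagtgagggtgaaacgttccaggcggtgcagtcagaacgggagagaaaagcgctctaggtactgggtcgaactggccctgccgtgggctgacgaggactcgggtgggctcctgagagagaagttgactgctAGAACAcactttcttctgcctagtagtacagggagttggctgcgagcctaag
Znrf1, chr8:111538093-111538342, plus strand: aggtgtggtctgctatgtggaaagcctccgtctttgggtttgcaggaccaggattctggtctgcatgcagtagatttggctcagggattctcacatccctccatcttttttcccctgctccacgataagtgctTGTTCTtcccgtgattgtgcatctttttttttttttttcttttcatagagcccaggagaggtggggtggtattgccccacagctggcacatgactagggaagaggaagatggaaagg
Fkbp5, chr17:28486150-28486399, minus strand: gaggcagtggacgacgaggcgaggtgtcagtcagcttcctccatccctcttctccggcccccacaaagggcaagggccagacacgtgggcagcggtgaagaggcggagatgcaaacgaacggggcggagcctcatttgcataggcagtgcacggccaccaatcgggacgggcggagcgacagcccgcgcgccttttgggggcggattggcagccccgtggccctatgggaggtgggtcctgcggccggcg
Sncb, chr13:54766596-54766845, minus strand: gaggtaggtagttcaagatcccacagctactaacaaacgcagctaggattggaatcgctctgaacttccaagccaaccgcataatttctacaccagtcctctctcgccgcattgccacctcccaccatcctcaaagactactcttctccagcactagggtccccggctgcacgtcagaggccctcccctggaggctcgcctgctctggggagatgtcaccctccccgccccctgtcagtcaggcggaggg
In the Sgk1 window AGAACA and TGTTCT lie 3 bases apart, starting 189 bases before the transcription start, and a further TGTTCT begins 242 bases before it. The single hexamer begins 39 bases before the start in Mkks, 52 in Csrnp1 and 117 in Znrf1. Csrnp1, Znrf1 and Sgk1 have other annotated starts, whose windows are not printed. A match is a description of letters, and the absence of a match in Fkbp5 and Sncb says only that these letters are not in these windows.

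Few genes set the sides clearly apart, and those that did had low signal. With a gap of at least 1.5-fold as the call, 28 of 11058 genes (0.253%) were higher with aldosterone alone and 11 (0.0995%) were lower. Their geometric mean signals ran from 55.9 to 363 for the higher genes, with a median of 71.9, and from 59.3 to 350 for the lower genes, with a median of 85.3. Among the 6937 genes at or above the 75th percentile of signal, 420, the number called was 0 in either direction. When signals under the filter were raised to it, so that a very low reading could not make a gap, 19 genes (0.172%) were called higher and 9 (0.0814%) lower.

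A small gap was common. The sides did not overlap for 1972 genes (17.8%) that were higher with aldosterone alone and for 2036 (18.4%) that were lower, and they overlapped for the other 63.8%. Among the genes above the 75th percentile these shares were 16.3% and 20.2%, and quantile normalization moved them to 17.4% and 18.6%. The median gap of the genes that did not overlap was 1.04-fold, and 90% of those gaps were under 1.15-fold. A gap of at least 1.25-fold, a limit chosen after seeing the data, was met by 118 higher and 57 lower genes, of which 9 and 7 were above the 75th percentile.

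The libraries of a side differed among themselves too. The 1 nM and 100 nM libraries differed by more than 1.5-fold in 4.01% of genes, and the ethanol and spironolactone libraries in 4.21%. The mean difference between the sides, which averages 2 libraries a side, passed 1.5-fold in 1.84%. Since a gap asks all 4 libraries to fall in line, leaving out any library can only add calls. Without ethanol 129 genes were called higher and 46 lower, without 1 nM aldosterone 73 and 83, without 100 nM aldosterone 96 and 88, and without spironolactone 128 and 51.

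**Figure D1:**
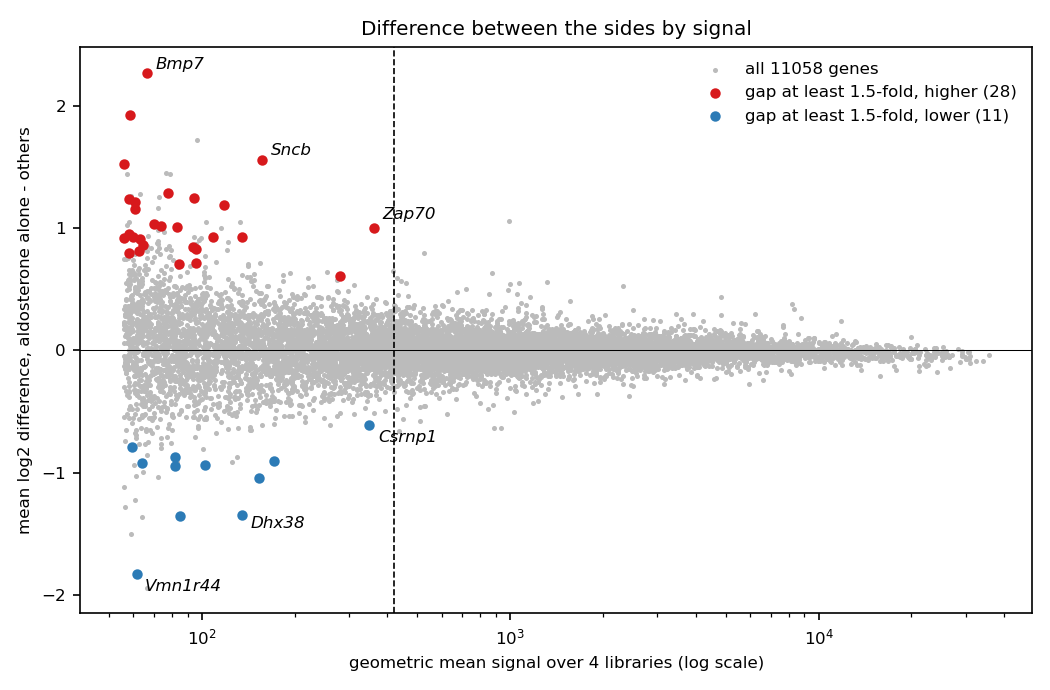
Mean log2 difference (aldosterone alone minus others, vertical axis) against the geometric mean signal over the 4 libraries (horizontal log axis) for 11058 genes; red and blue points have a gap of at least 1.5-fold. The 28 red and 11 blue points all lie left of the dashed line, the 75th percentile of signal at 420.

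The higher genes with the widest gaps after low signals were raised to the filter were, leaving out clone-like symbols, Bmp7, Sncb, Lce3b and Cbfa2t3. Bmp7, a bone morphogenetic protein needed for kidney development, had a signal of 129 with 1 nM aldosterone and 166 with 100 nM, against 51.8 with ethanol and 17.8 with spironolactone. Its gap was 2.48-fold, but both low readings lie under the filter, and raised to it they left 2.30-fold. Sncb, which encodes beta-synuclein, read 70.0 with ethanol, 257 with 1 nM, 283 with 100 nM and 120.1 with spironolactone, all 4 above the filter, for a gap of 2.14-fold. The spironolactone library thus stood above ethanol for Sncb and below it for Bmp7.

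Zap70, a kinase of the T cell receptor pathway, was the brightest of the 28. It read 245 with ethanol and 268 with spironolactone, and 453 and 583 with 1 and 100 nM aldosterone, a gap of 1.69-fold. Of the leukocyte markers 5 of 15 passed the filter. Of these 5, 1 (20%) was higher without overlap and 0 lower, beside 17.8% and 18.4% over all genes. The higher marker was Csf1r, a macrophage growth factor receptor gene, with 1012 (ethanol), 1098 (1 nM), 1123 (100 nM) and 864 (spironolactone). Its next brightest probe set overlapped, at 249, 224, 269 and 238 in the same order. The other markers that passed, Cd8a, Cd68, Fcgr2b and Laptm5, overlapped too, with mean differences of -0.06, -0.15, -0.92 and -0.09. Ptprc and Cd3e gave at most 14.8 in any library. The summed signal of 15 leukocyte markers was 1664 with ethanol, 1746 with 1 nM, 1601 with 100 nM and 1532 with spironolactone, most of it from Csf1r, and its part in the Zap70 reading was not tested. Syk, the related kinase of B cells and myeloid cells, also met the 1.5-fold call before low signals were raised, with 48.2, 75.5, 99.1 and 44.2 in the order ethanol, 1 nM, 100 nM and spironolactone. It falls outside the naming rule and was picked after its values were seen. The chemokine receptor gene Cxcr3 read 50.01, 88.6, 113 and 47.9 in that order, with its 100 nM value above its 1 nM value as in Zap70 and Syk.

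Clstn3, a calsyntenin of the synaptic membrane, had nearly equal low readings, 98.9 with ethanol and 97.0 with spironolactone. With aldosterone alone it read 203 at 1 nM and 172 at 100 nM, a gap of 1.74-fold in which the lower dose was the higher reading. Lce3b, a late cornified envelope gene of skin, did likewise, at 76.4 and 79.7 against 191 and 165. Its probe set is of a kind that can bind related transcripts, as is that of Cbfa2t3, a transcriptional corepressor. Cbfa2t3 read 56.7 with ethanol and 15.8 with spironolactone, against 114 and 114 with the doses of aldosterone. Its mean difference of 1.92 log2 came with a spironolactone reading far below the filter, and its gap was 2.00-fold.

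Among the other named genes, Thsd7b, which encodes a thrombospondin-domain protein, read 37.2 with ethanol and 29.5 with spironolactone against 86.3 and 105 with aldosterone alone. Tmem52, a transmembrane protein gene, was 36.7 with ethanol, 67.6 with spironolactone, 107 with 1 nM and 137 with 100 nM, so that spironolactone lay between the others. Mapk8ip1, a scaffold of JNK signalling, was 46.2 with ethanol and 73.9 with spironolactone, and 118 and 117 with aldosterone. In Tmem52, Mapk8ip1 and Sncb the ethanol reading was the lowest of the 4. The remaining 5, the zinc finger gene Zscan10, the squamous epithelial gene Sprr2k, the secretagogin gene Scgn, the endoplasmic reticulum calcium pump gene Atp2a3 and the long noncoding RNA Platr22, had gaps between 1.51-fold and 1.92-fold.

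Over all 28 higher genes, the 100 nM reading was above the 1 nM reading in 13 and below it in 15. The doses were within 1.25-fold of each other in 21. The spironolactone reading was above ethanol in 16 and below it in 12, and within 1.25-fold of it in 16. In 17 of the 28, at least 1 library read under the filter.

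**Figure D2:**
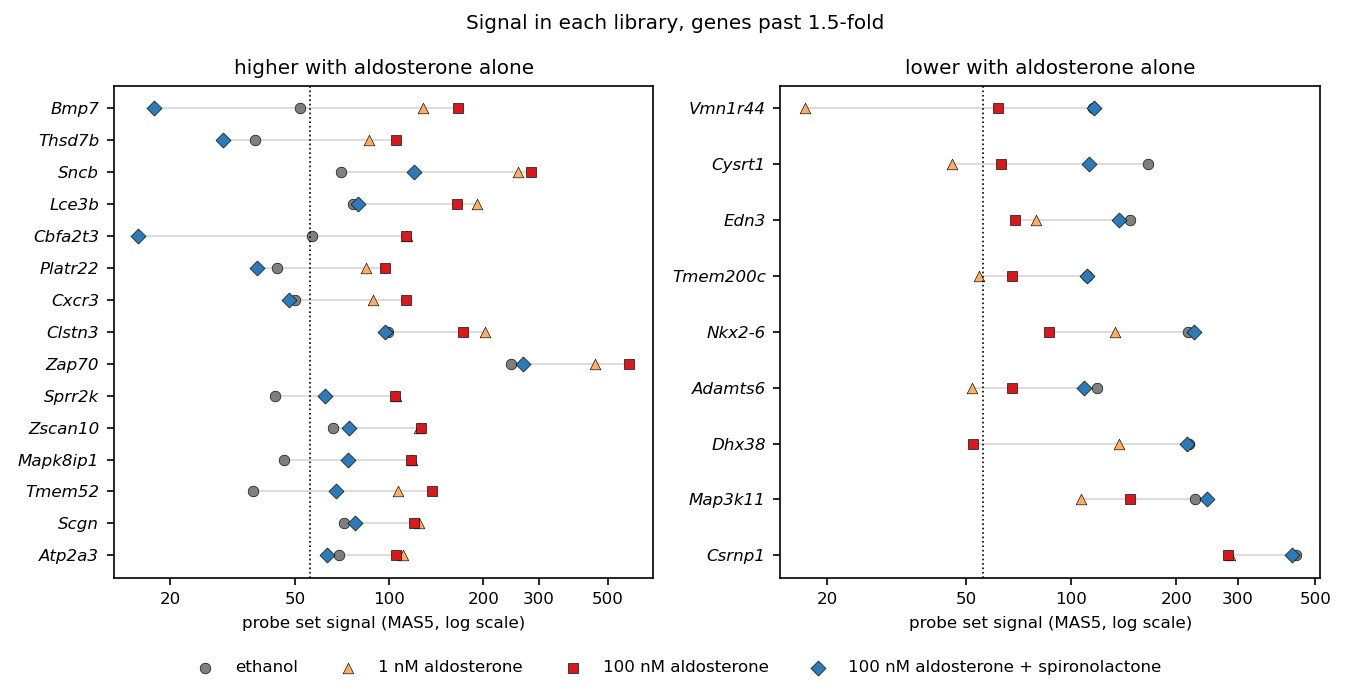
Signal of the 24 named genes with a gap of at least 1.5-fold after low signals were raised (horizontal log axis, MAS5 signal; 1 point a library; dotted line, the filter at 55.9). In the left panel both aldosterone-alone points lie to the right of both other points, and in the right panel to the left; the lower genes mostly have ethanol and spironolactone close together.

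The lower genes were fewer, and the largest signals among them were those of Csrnp1, Map3k11 and Nkx2-6. Ethanol and spironolactone lay within 1.25-fold of each other in 9 of the 11, and the doses of aldosterone in 5. Csrnp1, which encodes a nuclear transcriptional activator, was the brightest. It read 438 with ethanol, 284 at 1 nM aldosterone, 282 at 100 nM and 427 with spironolactone, so the readings formed close pairs, and the gap was 1.504-fold. Map3k11, a kinase upstream of JNK, read 226 and 244 with ethanol and spironolactone and 106 and 147 with 1 and 100 nM. Its gap of 1.53-fold dropped just under the call after quantile normalization.

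Edn3, which encodes endothelin-3, was 147 with ethanol and 136 with spironolactone, against 79.3 with 1 nM and 68.8 with 100 nM, a gap of 1.72-fold. Dhx38, a helicase of the spliceosome, went furthest with the higher dose, from 217 with ethanol to 136 with 1 nM and 52.4 with 100 nM, with 214 after spironolactone. The homeobox gene Nkx2-6 had the same order, 216, 133 and 86.1, with 224 after spironolactone. Vmn1r44, a vomeronasal receptor gene, ran the other way in dose, with 17.2 at 1 nM, 61.7 at 100 nM and 116 and 116 on the other side. The widest gap of the 11 was the 1.87-fold of Vmn1r44, set by its 100 nM and ethanol readings and the same after low signals were raised. Cysrt1, Tmem200c and the metalloprotease gene Adamts6 had gaps of 1.79-fold, 1.64-fold and 1.62-fold, each with the lowest reading at 1 nM. The probe sets of Edn3, Dhx38 and Cysrt1 are of the kind that can bind related transcripts.

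Better measured genes had smaller gaps. Above the 75th percentile the widest gap upward was that of Ldlrad3, an LDL-receptor-domain protein gene, at 1.44-fold. It read 338 with ethanol, 704 with 1 nM, 680.0 with 100 nM and 473 with spironolactone, the last being well above ethanol. Bpgm, which makes bisphosphoglycerate, had 606 and 607 on the other side and 870.0 and 843 on the aldosterone side, a gap of 1.39-fold with tight pairs. The lysosomal transporter gene Atp13a2 read 1189.8 and 999 with aldosterone alone, against 673 with ethanol and 736 with spironolactone. Timmdc1, an assembly factor of respiratory complex I, read 997 and 1005 against 709 and 744.

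The next genes were Evc2 of the primary cilium, Las1l of ribosomal RNA processing, the chaperonin-like gene Mkks, Lsm12, the O-glycosylation enzyme gene C1galt1, the noncoding snoRNA host Zfas1 and the zinc finger gene Zfp639. Their gaps ran from 1.31-fold for Evc2 to 1.24-fold for Zfp639. Zfas1 was the brightest, at 3859 with ethanol, 5515 with 1 nM, 5718 with 100 nM and 4446 with spironolactone. Last of the 12 came Fkbp5, the co-chaperone that corticosteroid receptors induce. Fkbp5 read 1315, 1880.3, 1735 and 1414 in the same order, with the 1 nM library the highest and a gap of 1.23-fold.

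On the lower side, Ciao3, of cytosolic iron-sulfur cluster assembly, went from 1134 with ethanol and 1076 with spironolactone to 673 with 1 nM and 751 with 100 nM, a gap of 1.43-fold. The forkhead transcription factor gene Foxo3 read 1202 and 1244 against 802 and 925, a gap of 1.30-fold with the 1 nM library the lowest. Znrf1, a ubiquitin ligase gene, read 755 and 736 against 489.7 and 550.2. Lrrc8d, a subunit of the volume-regulated anion channel, and Ubr4, a ubiquitin ligase of the N-degron pathway, were lowest with 100 nM, at 695 against 978 with ethanol and at 343 against 507. Gpat3, which starts glycerolipid synthesis, read 448 and 454 against 639.8 with ethanol and 595 with spironolactone. The other 6 named genes, the centrosomal gene Cep112 with 1.43-fold, and Htt, Trpc4ap, the phosphatase regulator Ppp1r37, the RNA-binding gene Taf15 and the minor spliceosome gene Zmat5, the last 5 with gaps between 1.20-fold and 1.21-fold, complete the 12.

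**Figure D3:**
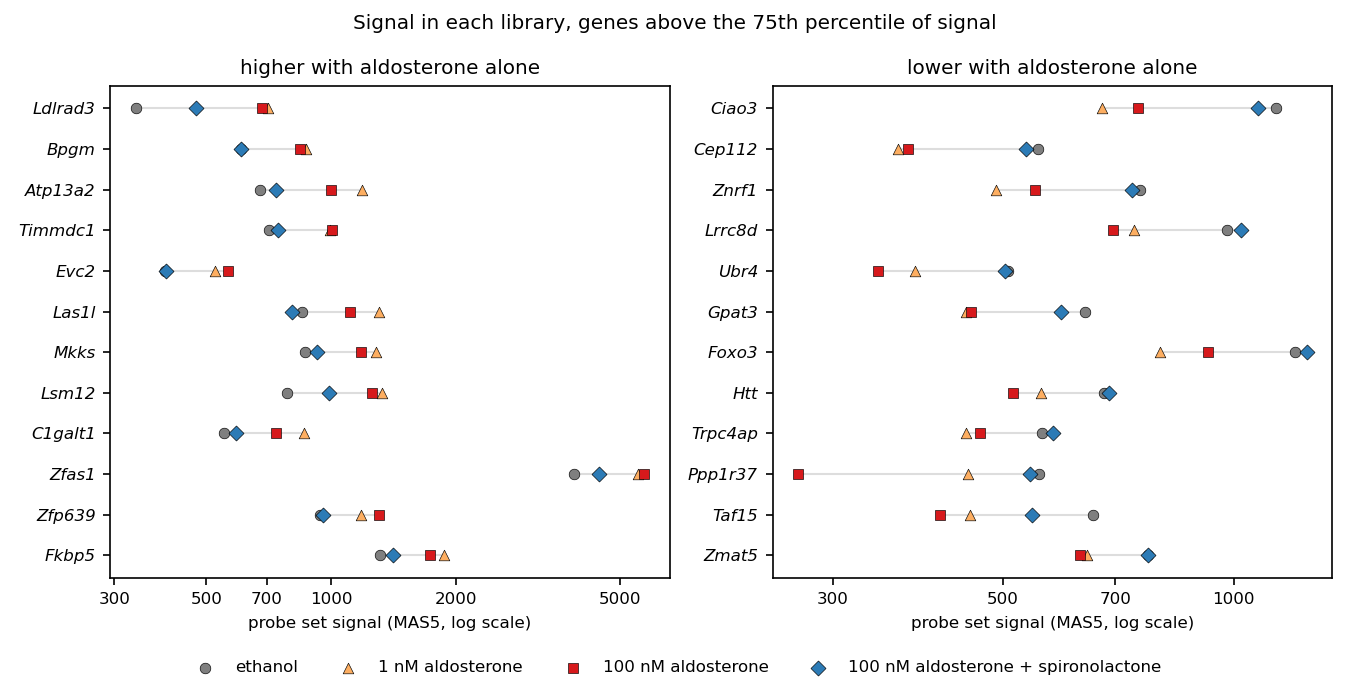
Signal of the 12 higher and 12 lower genes with the largest gap above the 75th percentile of signal (horizontal log axis, MAS5 signal; 1 point a library). Every gap here is under 1.5-fold, the widest being 1.44-fold for Ldlrad3 and 1.43-fold for Ciao3.

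A second probe set for the same gene gives a reading of the same RNA that the choice of genes did not use. None of the 28 higher and 11 lower genes had another probe set above the filter, whereas 47.2% of all entered genes did, and 26.5% of those under the 75th percentile. Of the 854 higher genes without overlap that had a second probe set, 20.02% were also higher there without overlap, 12.9% were lower and 67.1% overlapped. Of 1016 lower genes, 22.2% were also lower, 14.5% were higher and 63.3% overlapped. Over all second probe sets, whatever the first showed, 17.4% were higher and 16.6% lower without overlap.

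Among the bright genes with a gap of at least 1.25-fold, 5 higher genes had a second probe set and the number of these that repeated the gap was 0. Bpgm read 639, 634, 678 and 578 there in the order ethanol, 1 nM, 100 nM, spironolactone, an overlap. Of 4 lower genes with a second probe set, 2 repeated the direction without overlap. These were Znrf1, at 112, 92.7, 103 and 135 (its dimmest probe set went the other way, at 65.9, 107, 71.3 and 61.7), and Foxo3, whose second readings of 521, 492, 492 and 520.1 had a signed gap of -0.08 on the log2 scale. Cep112 was opposite, at 82.2, 127, 147 and 76.7, higher with aldosterone alone. Its brightest probe set is of the kind that can bind related transcripts. The second probe set of Fkbp5 read 199.9, 209.5, 329 and 250.4, with 100 nM the highest and the sides overlapping.

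**Figure D4:**
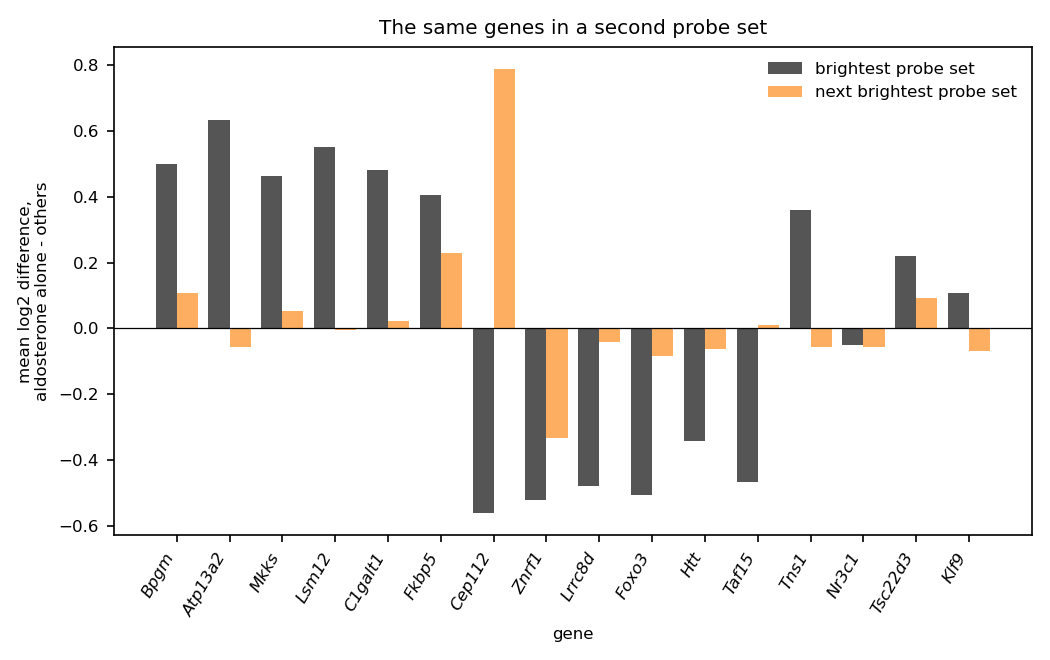
Mean log2 difference (aldosterone alone minus others) in the brightest and next brightest probe set above the filter, for the bright named genes and corticosteroid genes that have both. The second bar is smaller in size than the first for all but Cep112, which turns from -0.56 to 0.79, and Nr3c1, with -0.05 and -0.06.

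The best-known corticosteroid targets mostly did not set the sides apart. Where 4 values follow a gene from here on, they are its signals in the ethanol, 1 nM, 100 nM and spironolactone libraries, in that order. Sgk1, the kinase that keeps the epithelial sodium channel at the membrane, read 801 with ethanol, 935 with 1 nM, 1810.4 with 100 nM and 1424 with spironolactone. The spironolactone library was above the 1 nM library, so the sides overlapped, as they did for the next 3 genes. Tsc22d3, the leucine zipper gene also called GILZ, read 711, 703, 1365 and 994 in that order. Per1, of the circadian clock, read 231, 224, 527 and 349. Klf9, a Krüppel-like transcription factor gene, read 1349, 1393, 1844 and 1640.3. In these brightest probe sets of the 4 genes 100 nM came first and spironolactone second, while the second probe set of Klf9 read 1355, 1257, 1699 and 1734. The glucocorticoid receptor gene Nr3c1 overlapped as well, at 1959, 1998, 1708 and 1871.

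Of 28 corticosteroid receptor targets that entered, 5 were higher without overlap (Fkbp5, Crispld2, Per2, Tgm2 and Zfp36) and 0 were lower, with a median mean difference of 0.02 log2 against -0.00 over all genes. The 5 are 17.9% of the list, where 17.8% of all genes were higher. Crispld2, a secreted glycoprotein gene, read 76.7, 95.4, 168 and 28.1, with a gap of 1.24-fold. The clock gene Per2 read 69.4, 88.1, 87.8 and 76.5, a gap of 1.15-fold. With all probe sets of a gene reduced to their median, 1 member was higher and 1 lower.

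Genes known to answer aldosterone in the nephron had a median of 0.14. Of 17 members 0 were lower and 4 were higher (23.5%, beside 17.8% over all genes). They were Rasl12, a Ras-like GTPase gene, at 157, 221, 249.9 and 197; the sodium pump subunit Atp1b1; the focal adhesion gene Tns1; and the kinase gene Wnk4. The gaps were 1.12-fold, 1.03-fold, 1.01-fold and 1.01-fold. Tns1 read 228, 268, 372 and 265, so that 1 nM and spironolactone were nearly level. The second probe sets of Tns1 and Atp1b1 overlapped, with mean differences of -0.06 and -0.04. Without the ethanol library the list's median was -0.02, and with the median over probe sets 2 members were higher and 2 lower.

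Distal ion transport genes were higher in 6 of 14 (42.9%) and lower in 1 (7.14%), with a median of 0.11. Over all genes the shares were 17.8% and 18.4%. Pvalb, the calcium buffer of the early distal convoluted tubule, read 51.4, 91.5, 61.1 and 38.3. The magnesium channel gene Trpm6 read 81.9, 95.4, 86.2 and 73.1, and the basolateral potassium channel gene Kcnj10 91.8, 99.7, 117 and 94.3. These are dim genes with gaps of at most 1.19-fold. Fxyd5, a modulator of the sodium pump, was the lower member, at 560.4, 497, 501 and 583. Above the 75th percentile the list had 2 higher and 1 lower, and without the ethanol library its median was 0.00. The distal convoluted tubule markers, which share Pvalb, Trpm6, Kcnj10, Egf and Cnnm2 with it, were higher in 5 of 6 (83.3%) and lower in 0. Pvalb, Trpm6, Kcnj10 and Egf are higher members of both lists, so the 2 shares are largely the same readings. Only Wnk4 was a higher marker outside the ion transport list. All 6 lay under the 75th percentile of signal. WNK kinases and their regulators had 1 higher and 0 lower of 12.

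Receptors and chaperones of the steroid pathway had 2 higher (11.8%) and 3 lower (17.6%) of 17, beside 17.8% and 18.4% over all genes. Besides Fkbp5, the higher gene was the HSP70 cofactor Bag1, with a gap of 1.01-fold. The lower 3 were the chaperones Hsp90aa1 and Hspa8 and the coactivator Ep300, whose widest gap was 1.01-fold. Quantile normalization turned this split to 3 higher and 1 lower, where 18.5% and 17.5% of all genes were higher and lower. The circadian clock list had 3 higher (Per2, Ciart and Tef) and 2 lower (Nfil3 and Arntl) of 16, which is 18.8% and 12.5%.

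Among the signalling lists, the NF-kB and immediate early lists had the larger shares of lower members, beside 18.4% over all genes. NF-kB and cytokine genes had 0 higher and 9 lower of 25, with a median of -0.08. Lif, an interleukin-6 family cytokine, read 245, 213, 215 and 249, and the chemokine gene Ccl20 212, 195, 145 and 234. The gaps of Lif, Ccl20 and Tnfaip2, the widest of the 9, were 1.14-fold, 1.09-fold and 1.07-fold. Immediate early genes had 3 higher and 8 lower of 25, with a median of -0.08. The AP-1 subunit gene Fosl1 read 751, 634, 537 and 694, whereas Egr3, a zinc finger gene, was higher at 57.5, 126, 134 and 115.

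The ERK feedback list holds feedback inhibitors and other genes of the pathway, such as Etv4, Etv5, Ereg, Hbegf and Epha2. It had 0 higher and 4 lower of 17 (23.5% lower, beside 18.4% over all genes). Without the 100 nM library 6 were higher and 6 lower, with a median of 0.02. In that setting 32.8% of all genes were higher and 35.3% lower, since fewer libraries have to separate. Spry2, a Sprouty inhibitor, read 597, 379, 449 and 489, and the phosphatase gene Dusp4 237, 205, 178 and 231. TGF-beta and Smad genes had 3 higher and 6 lower of 30, and without the 100 nM library the split turned to 15 higher and 8 lower, with a median of 0.03. The corepressor gene Ski read 369, 400.4, 776 and 394, so its mean difference of 0.55 log2 came from the 100 nM library and its gap was 1.02-fold. Bmpr1a, a BMP receptor gene, was lower with a gap of 1.11-fold, but its next brightest probe set overlapped, with a mean difference of 0.00. The extracellular matrix list had 3 higher and 6 lower of 25. The higher 3 were Acta2, smooth muscle actin, at 62.0, 102, 109 and 77.0, Tagln and Tns1. They are cytoskeletal and focal adhesion genes on that list, not genes of matrix proteins. Interferon response genes had 4 higher and 2 lower of 21. Without the 100 nM library they had 7 and 7, beside the larger all-gene shares of that setting given above. No member of these lists met the 1.5-fold call.

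Metabolic lists differed from each other. Mitochondrial fatty acid oxidation genes had 8 higher (42.1%) and 2 lower (10.5%) of 19, with a median of 0.05. The shares over all genes were 17.8% and 18.4%. Quantile normalization left the list's counts the same. Hadhb, of the trifunctional protein, read 3229, 4281, 4369 and 3842. Its second probe set overlapped and was opposite in sign, at 4166, 3452, 3782 and 3600.4, a mean difference of -0.10. The acyl-CoA dehydrogenase gene Acadm read 2742, 2893, 2908 and 2725. The other 6 higher members were Acadvl, Echs1, Acaa2, Etfb, Eci1 and Decr1, and the lower were Etfa and the coactivator gene Ppargc1a, whose second probe set was higher without overlap, at 446, 612, 470.2 and 428. Of the 8 list members with a second probe set, 2 were higher there and 1 lower. Insulin signalling and lipid synthesis genes had 1 higher (4.17%) and 6 lower (25.0%) of 24. Besides Foxo3, the insulin receptor substrate gene Irs1 read 1590.0, 1472, 1124 and 1769, and Fasn, fatty acid synthase, 3253, 3069, 2696 and 3446. Rptor, the scaffold of mTORC1, was the higher member, at 561, 801, 759.6 and 686.

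Hypoxia and glycolysis genes had 5 higher and 3 lower of 29, cholesterol synthesis 4 and 5 of 21, and the respiratory chain 6 and 7 of 31. The unfolded protein and amino acid stress list had 7 and 6 of 31, oxidative and xenobiotic defence 3 and 3 of 22, and heat shock 2 and 4 of 16. Over all genes 17.8% were higher and 18.4% lower. In these lists Keap1, the sensor of oxidative stress, had the widest gap upward, 1.14-fold, at 622, 708, 838 and 602.

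G2 and mitosis genes had 9 higher (28.1%) and 3 lower (9.4%) of 32, beside 17.8% and 18.4% over all genes. Among the higher was the kinesin gene Kif11 at 1779.5, 2073, 1984 and 1561. Among the lower was the proliferation marker Mki67 with a gap of 1.06-fold. S phase genes had 7 and 5 of 28. The medians of these lists were 0.00 each. The p53 targets and CDK inhibitors had 3 higher and 5 lower of 24. There the death receptor gene Fas read 47.2, 67.2, 76.5 and 49.3, and Gtse1, a mitotic regulator of p53, 434, 289, 319.6 and 429.7, with a gap of 1.34-fold downward. Epithelial junction genes had 3 higher and 1 lower of 16.

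Cytosolic ribosomal protein genes had 0 higher and 14 lower (53.8%, beside 18.4% over all genes) of 26, with a median of -0.04. But quantile normalization reversed this to 6 higher and 3 lower, with a median of 0.01. Rpl12 had the widest gap, 1.19-fold, at 1363, 1003, 984 and 1192. Splicing factors had 3 higher and 12 lower of 37, with a median of -0.05, and 4 and 8 after quantile normalization. Dhx38 is on this list and was the only member of any of the 33 lists that met the 1.5-fold call. Housekeeping genes had 1 higher and 2 lower of 13, and 3 and 1 after quantile normalization.

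**Figure D5:**
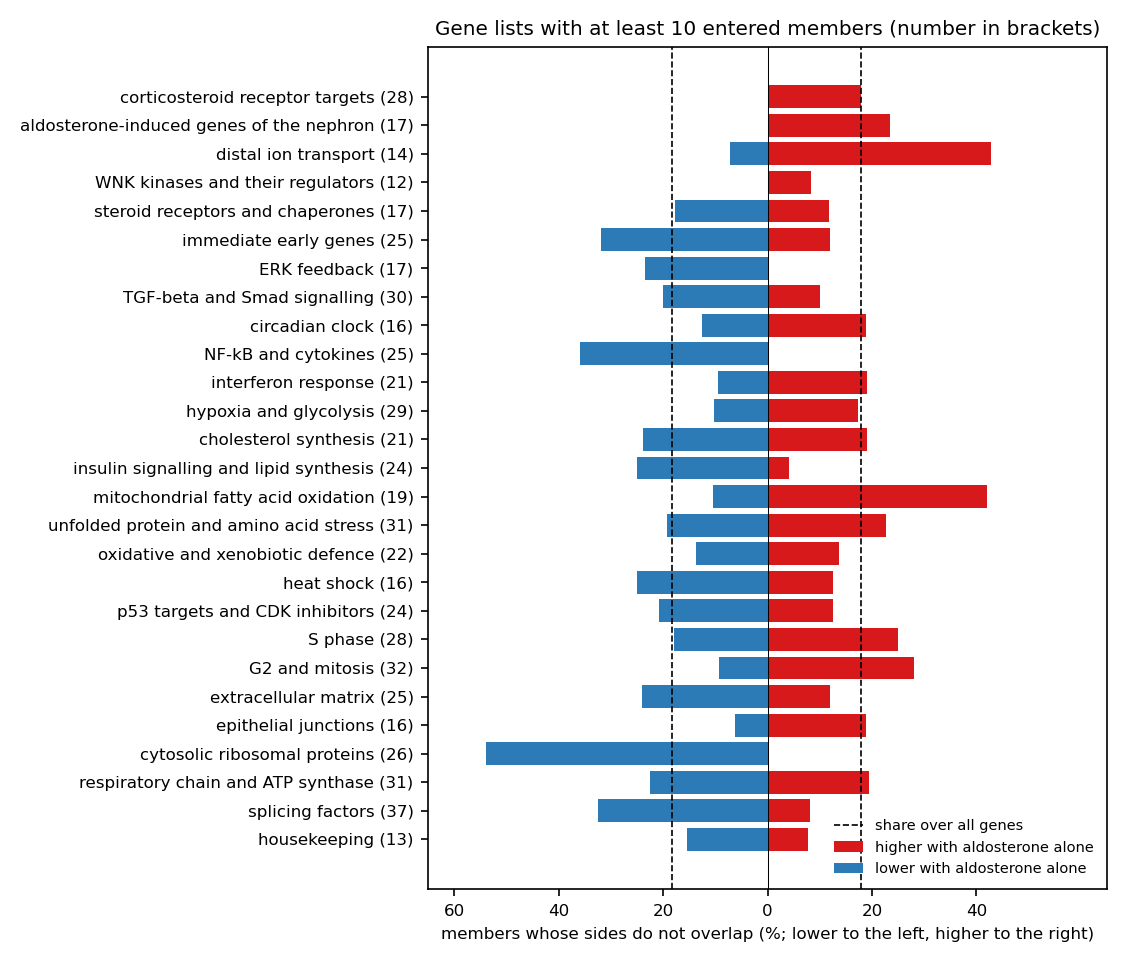
Share of entered members whose sides do not overlap, higher to the right (red) and lower to the left (blue), for the lists with at least 10 entered members, which leaves out the cell type markers, and with the shares over all genes as dashed lines at 17.8% and 18.4%. Of these lists, distal ion transport and fatty acid oxidation reach furthest to the right and ribosomal proteins furthest to the left, the last turning after quantile normalization.

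Markers of other cell types were given as a check on the line. Proximal tubule markers had 2 higher (28.6%) and 0 lower of 7 that entered, beside 17.8% and 18.4% over all genes. The higher 2 were Slc34a1, near the filter at 61.4, 66.0, 63.7 and 44.6, and the water channel Aqp1 at 2069, 2247, 2479 and 2133. Aqp1 made up most of a summed signal of 3211 with ethanol, 3559 with 1 nM, 3608 with 100 nM and 3278 with spironolactone. Collecting duct markers had 2 of 16 above the filter, fibroblast markers 2 of 13 and endothelium markers 5 of 13. The collecting duct sum was 489 with ethanol, 622 with 1 nM, 580 with 100 nM and 489 with spironolactone, the fibroblast sum 543, 586, 563 and 462, and the endothelium sum 1049, 978, 945 and 978. The distal, proximal, collecting duct and fibroblast sums were thus higher on the aldosterone-alone side in both libraries, and their part in the results above was not tested.

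The corticosteroid hexamer was counted over the whole reference window of each annotated start. That window holds the 250 bases before the start, the part printed above, and a short stretch past it. AGAACA on either strand was found in 19.0% of 32851 windows of 27025 genes, and in 11.8% of the windows of the 9000 entered genes that matched by symbol. Of the 28 higher genes 21 matched, and 2 of their 26 windows (7.69%) held it. Of the 11 lower genes 7 matched, and 2 of 10 windows did. AGAACA and TGTTCT with 3 bases between them were found in 3 of all windows and in 1 of the entered genes' windows, that of Sgk1 printed above, a gene whose sides overlapped.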

How the data were processed

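Signal intensities were deposited by the authors on a linear scale, from MAS5 as listed in the submitters' processing notes; its version, scaling target and detection calls were not stated there. The number of value columns of other series was 0. Of 45101 probe sets, 64 were array controls, 34958 had 1 gene symbol in the platform annotation, 932 several and 9160 none listed; 34754 matched RefSeq genes by Entrez identifier. Signals were taken to log2 with no pseudocount and no further scaling (Python 3.11.15, numpy 2.4.6, pandas 2.3.3). With 1 library per treatment there was no test, so precision is limited by the number of arrays.

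The comparison, its members and the gene lists were chosen with earlier results of these data known. Named were up to 15 genes each way with a gap of at least 1.5-fold after signals under the filter were raised to it, the 12 widest gaps each way above the 75th percentile, up to 3 members each way per list, and 9 preset corticosteroid and receptor genes. Clone-like symbols (4 called genes) were counted only. The calling procedure was run on simulated data with planted differences much wider than 1.5-fold. That checks the code and says nothing of how often calls near the limit are wrong. Alternatives were quantile normalization, other filters, a pseudocount of 50, the median of all probe sets of a gene, other limits and leaving out each library.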

Additional observations from a re-analysis of the deposited data

How the results depend on the processing

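The main setting called 28 genes higher and 11 lower of 11058. A filter at the 75th percentile left 0 and 0 of 6937, and no filter gave 543 and 367 of 18194. Over the main 11058 genes, a pseudocount of 50 gave 7 and 0, and a gap of at least 2-fold gave 6 and 0. A mean difference of at least 1.5-fold gave 136 and 68, and a gap of at least 1.25-fold, added after seeing the data, 118 and 57. With the median over probe sets 9931 genes entered. Of these 38 were called higher, 17 of them shared with the 28, and 23 lower, of which 2 were shared with the 11. Quantile normalization gave 28 and 11, with 27 and 10 shared, and raising low signals to the filter 19 and 9. Leaving out 1 library gave between 73 and 129 higher and between 46 and 88 lower, since fewer libraries have to separate. Of the named genes, 18 fell under 1.5-fold with the pseudocount, Map3k11 with quantile normalization, and Atp2a3, Dhx38 and Csrnp1 with the median over probe sets, where Cep112 stood at 0.63, the opposite direction. The causes were not tested, except where fewer genes or libraries entered. No gene among the 39 was above the 75th percentile or had a second probe set above the filter, and detection calls were not used here, so how far signal over background limits these calls was not measured. No paired analysis was possible because each treatment had 1 library and the labels carry no replicate numbers.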

Other observations

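Probe sets with no single gene symbol lay outside the comparison by gene. Of 2601 that passed the filter, 9 (0.346%) were at least 1.5-fold higher with aldosterone alone and 16 (0.615%) lower, by the same gap. Of the 860 above the 75th percentile of signal, 1 met the call. They were counted and not named.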
